A study of Mus musculus with 3 samples.

Results

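The cytosolic ribosomal protein genes of mouse bone marrow were read in 3 single-cell RNA libraries, 1 from each of the Control, IR and IR+CBD groups. Of 88 gene symbols with the standard form of a large subunit (Rpl), stalk (Rplp) or small subunit (Rps) name, 83 reached the minimum of 1000 UMIs over the 3 libraries and are described here, out of 56980 listed genes, of which 12468 reached the same minimum. The members were thus chosen on measured UMI numbers, and their abundance is given as a description with no test. The 83 comprised 47 large subunit genes, the 3 stalk genes Rplp0, Rplp1 and Rplp2, and 33 small subunit genes. By symbol, 7 of them were paralogs or retrocopies (Rpl3l, Rpl6l, Rpl7l1, Rpl22l1, Rps3a3, Rps4l and Rps27l). Pseudogene symbols ending in -ps were left out, as were ribosomal genes whose names do not follow the form, such as Rpsa, Rack1 and Fau.

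All mice were of the C57BL/6 strain, which the study used as males for its irradiation work, and BMNCs flushed from the femurs were collected 14 days post-irradiation (14 DPI). The Control group received 0 Gy, and whether it received solvent, like the age of the mice in the libraries, is not given in the sources used here. The IR group received 6 Gy of Cobalt-60 gamma radiation with the solvent, soybean oil containing DMSO, and the IR+CBD group received 6 Gy with cannabidiol (CBD) in that solvent, injected around the time of exposure. Each library pooled 3 mice. Lineage-negative marrow with Kit, lineage-negative marrow without it, and lineage-positive marrow were sorted apart and recombined at a set ratio before loading, so the share of each cell kind in a library partly reflects that step. With 1 library per group no test between groups was possible. Each interval below is a 95% interval of counting error only, which does not cover differences between mice or between library preparations.

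Ribosomal proteins are the protein part of the cytosolic ribosome, which joins a small subunit that reads the mRNA to a large subunit that forms the peptide bond. Most of their mRNAs begin with a C followed by a run of pyrimidines, the TOP motif, through which mTOR signalling controls their translation together. In bone marrow these genes are known for their dosage, since loss of a single copy of RPS19, RPL5, RPL11 or RPS14 in people is linked to Diamond-Blackfan anaemia or to the anaemia of the 5q deletion.

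The first bases of the mRNAs are where the family shares its best known sequence feature. RefSeq start sites of build GRCm38.p6 matched 60 of the 83 members by symbol, with 72 start sites, and coordinates below are of that build, not of GRCm39, to which the study aligned its reads. The windows shown run from 10 bases before the annotated start to 20 bases from the start on, read 5′ to 3′ on the strand of the gene, and capitals mark the longest unbroken run of C or T. They are shown for 6 members among the highest or lowest by ratio between libraries (Rps10, Rpl24, Rpl27, Rpl15, Rpl38 and Rps28), for Rps2, Rps6 and Rps27 of the small subunit, and for the paralog Rpl22l1, all described below.
Rps10 (chr17:27635225-27635254, minus strand): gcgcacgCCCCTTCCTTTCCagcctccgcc
Rpl24 (chr16:55966265-55966294, plus strand): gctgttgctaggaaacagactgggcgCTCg
Rpl27 (chr11:101442235-101442264, plus strand): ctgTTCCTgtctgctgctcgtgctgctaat
Rpl15 (chr14:18270967-18270996, minus strand): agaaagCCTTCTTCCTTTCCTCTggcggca
Rps2 (chr17:24720053-24720082, plus strand): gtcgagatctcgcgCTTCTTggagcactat
Rpl38 (chr11:114668570-114668599, plus strand): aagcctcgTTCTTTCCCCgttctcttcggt
Rps28 (chr17:33824543-33824572, minus strand): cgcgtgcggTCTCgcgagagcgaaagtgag
Rps6 (chr4:86857348-86857377, minus strand): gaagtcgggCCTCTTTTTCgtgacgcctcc
Rps27 (chr3:90213629-90213658, minus strand): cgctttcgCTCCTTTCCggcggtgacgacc
Rpl22l1 (chr3:28805498-28805527, plus strand): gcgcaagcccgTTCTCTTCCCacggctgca
The run was 17 bases long in Rpl15 and 13 in Rps10, but 3 in Rpl24 and 4 in Rps28, so members with large differences between libraries had both long and short runs. A C or T run of 8 or more bases stood in 24 of the 72 member windows (33.3%) and in 11.2% of the windows of all 32851 starts in the table. In promoters taken from 250 bases before to 50 bases after the start, searched on both strands, CCGGAAG, a core of ETS family sites, stood in 34.7% of member starts against 8.86% of all starts. GGGCGG, the core of SP1 sites, stood in 59.7% against 35.7%, AAGATGG, a YY1 core, in 16.7% against 6.34%, and TATAAA, the TATA box, in 9.72% against 13.6%. Matches can overlap, CCGGAAG with AAGATGG in their shared AAG and AAGATGG with GGGCGG in their GG, and several starts of 1 gene share sequence. Such a match is a description of the letters in the window and not a site.

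Members took 21.9%, 22.3% and 22.4% of all UMIs in Control, IR and IR+CBD, so that more than 1 UMI in 5 came from these 83 genes in every library. These shares rest on 42577371, 45121040 and 38807680 member UMIs in 10674, 10345 and 10273 cells with at least 200 genes and at most 5% mitochondrial UMIs. Median depth was 12480, 14211 and 12502 UMIs per cell. Of the barcodes, 35 were shared between Control and IR, 41 between Control and IR+CBD and 51 between IR and IR+CBD. The share was 1.020 times that of Control in IR (1.020 to 1.021) and 1.003 times that of IR in IR+CBD (1.003 to 1.004). Taken as a mean over cells in place of summed UMIs, the share was 19.1%, 18.8% and 18.6%, in the opposite order, so the direction of these small differences depended on how cells were weighted. Without the 4.23%, 5.14% and 5.21% of cells that passed 2 or more of the lineage gates described next, the ratios of summed UMIs were 1.018 and 1.004.

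The share differed far more between kinds of cell than between libraries. Cells were gated on UMIs of marker genes: at least 5 of Mpo (myeloperoxidase, of granulocyte-monocyte progenitors), 2 of Klf1 (an erythroid transcription factor), 2 of Cd79a (a subunit of the B cell receptor), 5 of Retnlg (of mature neutrophils), 3 of Siglech (of plasmacytoid dendritic cells), or 1 each of Cd34 and Adgrl4 (of stem and progenitor cells). Of the markers listed for each gate, those with their highest CPM in their own gate in all 3 libraries numbered 5 of 8 for Mpo, 6 of 9 for Klf1, 8 of 8 each for Cd79a, Retnlg and Siglech, and 8 of 10 for Cd34/Adgrl4. The last gate is no separate population, since 69.0%, 87.4% and 83.4% of its cells also passed the Mpo gate. CPM here are UMIs of a gene per 1000000 UMIs of the same cells.

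Erythroid cells of the Klf1 gate gave the most, with member shares of 26.7%, 25.7% and 26.1% in Control, IR and IR+CBD. The Cd34/Adgrl4 gate followed with 23.6%, 23.8% and 24.4%, and the Mpo gate with 23.1%, 23.6% and 24.2%. The order of all 6 gates was the same in the 3 libraries. Cells of the Cd79a gate gave 19.7%, 20.1% and 19.2%, and cells of the Siglech gate 19.2%, 17.8% and 17.2%, the latter from only 273, 46 and 79 cells. Mature neutrophils of the Retnlg gate were lowest, at 9.02%, 8.95% and 8.97%. The cells of this gate were uneven: without the 14.8%, 15.0% and 16.6% of them that also passed another lineage gate, the share was 3.89%, 3.17% and 3.27%. Hemoglobin UMIs, a sign of erythroid RNA, took 0.0891%, 0.606% and 0.481% of the UMIs of the Retnlg gate, and their part in the share was not tested. Depth differed between gates too. In Control the median UMIs per cell were 39670, 27462 and 33196 in the Klf1, Cd34/Adgrl4 and Mpo gates. They were 4042, 7722 and 8770 in the Cd79a, Siglech and Retnlg gates. Within cells of 20000 to 40000 UMIs the Cd79a gate gave 22.1%, 22.8% and 22.7%, and the Mpo gate 23.5%, 24.1% and 24.6%. The part of depth in the order of the gates was not tested.

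**Figure D1:**
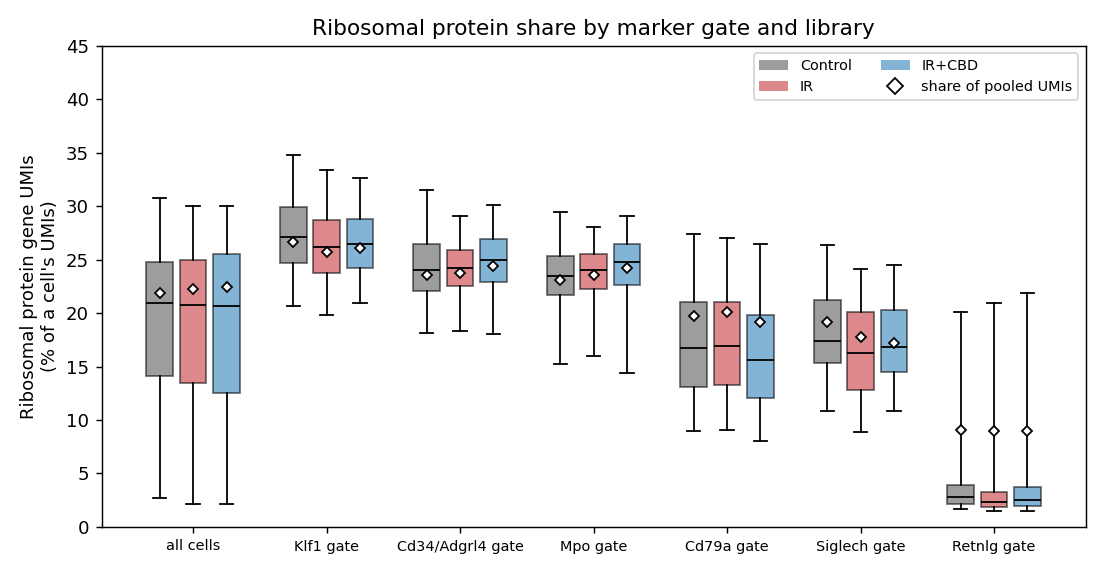
Share of UMIs from the 83 ribosomal protein genes (percent, vertical axis) in all cells and in 6 marker gates, for the Control, IR and IR+CBD libraries. Boxes span the quartiles over cells with the median as a line, whiskers run from the 5th to the 95th percentile of cells, and diamonds give the share of the summed UMIs. Diamonds lie at 25.7 to 26.7% in the Klf1 gate and at 8.95 to 9.02% in the Retnlg gate, where they stand above the boxes.

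Between libraries, the gates did not share 1 direction. IR over Control, the share was 1.02 times in the Mpo gate and 1.02 in the Cd79a gate, 1.01 in the Cd34/Adgrl4 gate, 0.992 in the Retnlg gate, 0.963 in the Klf1 gate and 0.929 in the Siglech gate. IR+CBD over IR, it was 1.03 in the Mpo and Cd34/Adgrl4 gates, 1.02 in the Klf1 gate, 1.00 in the Retnlg gate, 0.961 in the Siglech gate and 0.953 in the Cd79a gate. Both comparisons use the IR library. The near-level value of the Retnlg gate rests on its cells that also passed another lineage gate: without them its ratio was 0.815 for IR over Control and 0.842 for IR+CBD over Control. The Mpo gate thus stood in the order Control, IR, IR+CBD, and the Klf1 gate had its lowest value in IR. Depth moved with the Mpo gate, where the median UMIs per cell were 33196, 30684 and 24151. Within cells of 20000 to 40000 UMIs its share was 23.5%, 24.1% and 24.6%, and at 40000 or more it was 22.5%, 23.0% and 23.5%, in the same order of libraries, whereas at 10000 to 20000 UMIs it was 25.0%, 22.1% and 24.1%, with IR lowest.

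Cells with and without mRNAs of division also differed, in opposite ways by lineage. In the Mpo gate, cells with no UMI of Mki67 or Top2a, genes of proliferating cells, gave 26.0%, 25.1% and 25.6% of UMIs to ribosomal proteins, and cells with 3 or more gave 22.8%, 23.3% and 23.9%. In the Klf1 gate the corresponding shares were 32.7%, 33.0% and 31.6% (from 22, 32 and 21 cells) against 26.4%, 25.5% and 26.0%. In the Cd79a gate the cells with none were the lower ones, at 16.2%, 15.7% and 14.5% against 20.9%, 22.0% and 21.3%. The Retnlg gate went the same way, at 3.27%, 2.76% and 3.03% against 15.9%, 17.2% and 16.4%. Cells with no such UMI were shallower in each of these gates, with a median of 3068 against 12563 UMIs in the Cd79a gate and 14342 against 36512 in the Mpo gate of Control. Cells of 2 or more lineage gates were kept in these values. The part of depth and of such cells in these differences was not tested.

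Gene by gene, most members differed little between libraries. IR over Control, 3 of 83 members were higher by more than 1.2-fold, against 9.30% of the 12468 genes with at least 1000 UMIs, and 0 were lower, against 17.7%. IR+CBD over IR, 0 members were higher past 1.2-fold (3.99% of all genes) and 1, Rpl3l, was lower (3.79%). IR+CBD over Control, 1 member, Rps3a3, was higher (7.31%) and 1, Rpl3l, was lower (14.6%). The median log2 ratio of the members was 0.03 for IR over Control, -0.01 for IR+CBD over IR and 0.02 for IR+CBD over Control, against -0.04, 0.00 and -0.04 for all genes. Members above 1 numbered 55 (66.3%), 40 (48.2%) and 56 (67.5%), against 43.3%, 49.1% and 40.9% of all genes. CPM of 1 gene is relative to all others in its library, so these values do not tell a change of the members from a change of the rest.

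**Figure D2:**
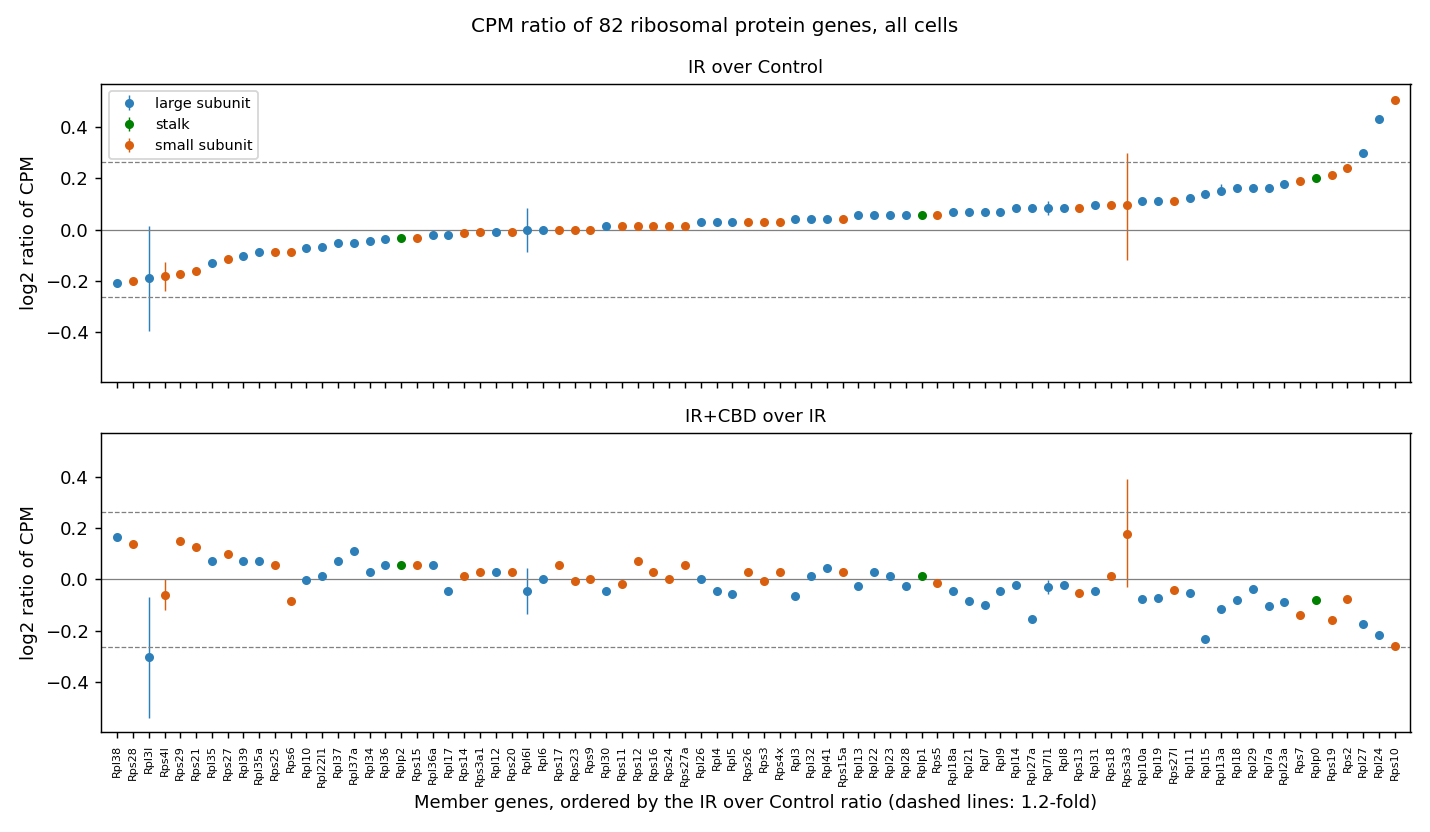
The log2 ratio of CPM (vertical axes) of 82 of the 83 members for IR over Control (upper panel) and IR+CBD over IR (lower panel), with genes in the same order in both, bars for 95% counting intervals, colours for the subunit and dashed lines at 1.2-fold. Rps10, Rpl24 and Rpl27 lie above the line in the upper panel, and both panels use the IR library.

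The 3 members past 1.2-fold in IR were Rps10, Rpl24 and Rpl27. Rps10, a small subunit protein that is ubiquitinated when ribosomes stall, had 757, 1079 and 902 CPM in Control, IR and IR+CBD. It was 1.42 times (1.41 to 1.43) the Control level in IR and 0.836 times (0.831 to 0.842) the IR level in IR+CBD, which lay between the other libraries. Rpl24, a large subunit protein that forms a bridge to the small subunit, had 506, 682 and 586 CPM, with ratios of 1.35 (1.34 to 1.36) and 0.860 (0.853 to 0.867). Rpl27, a large subunit protein, had 736, 902 and 800.3 CPM, with ratios of 1.23 (1.22 to 1.23) and 0.887 (0.881 to 0.894). IR was the highest and Control the lowest library for all 3.

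The same order was seen in every gate for Rps10 and Rpl24, with cells of 2 or more lineage gates kept here and in the ranges below. Without those cells, Rpl24 in the Retnlg gate had 2.46, 3.45 and 2.89 of 1000 member UMIs. At member shares of 3.89%, 3.17% and 3.27% its IR+CBD level there was not above Control. The IR over Control ratios of Rps10, Rpl24 and Rpl27 in the Retnlg gate were then nearer to 1. Rps10 had 787, 1123 and 958 CPM in the Mpo gate, 919, 1226 and 1047 in the Klf1 gate, and 720, 1003 and 809 in the Cd79a gate. It had 336, 467 and 394 CPM in the Retnlg gate, 663, 849 and 711 in the Siglech gate and 794, 1128 and 960.4 in the Cd34/Adgrl4 gate. Across the 6 gates the IR over Control ratio ran from 1.28 to 1.43 for Rps10, from 1.27 to 1.35 for Rpl24 and from 1.08 to 1.26 for Rpl27. The IR+CBD over IR ratio ran from 0.807 to 0.854, from 0.788 to 0.884 and from 0.812 to 0.932. With the cell kinds weighted as in Control, the IR over Control ratios over all cells were 1.40, 1.31 and 1.19, so Rpl27 then lay under 1.2-fold.

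These genes have near-identical copies, and how reads shared with a copy were counted can move their values. Of the 50-base stretches in the last 300 bases of the mRNA, 86.5% in Rps10, 81.3% in Rpl24 and 83.3% in Rpl27 also occurred in transcripts of other genes. Such sharing was common in the family, with over 50% in 49 of the 80 members that had a transcript in the GENCODE set, and none in 17. The copy Rps10-ps1 had 76.4, 89.9 and 80.8 CPM and Rps10-ps2 had 44.4, 45.1 and 43.1. The gene Gm49804, which overlaps Rps10 on its strand, had 0.164, 0.400 and 0.363 CPM, and Gm28037, which overlaps Rpl24, had 2.89, 3.04 and 2.67. Rps10-ps1 stood in the same order of libraries as Rps10, at 1.18 times for IR over Control, and the part of these copies in the ratios was not tested. Over the 49 members with more than 50% shared stretches the median log2 ratio of IR over Control was 0.04, and over the other 31 it was 0.03.

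Of the stalk, the flexible arm that recruits translation factors, Rplp0 had 3361, 3876 and 3665 CPM in Control, IR and IR+CBD (1.15 times in IR). Rplp1 had 5425, 5638 and 5693 CPM and Rplp2 had 3052, 2982 and 3104. Over all cells the base protein Rplp0 thus stood further from its Control level than the acidic pair that binds it. This did not hold in every gate. For IR over Control, Rplp0, Rplp1 and Rplp2 were at 1.11, 0.942 and 0.957 in the Mpo gate. In the Siglech gate they were at 0.894, 0.850 and 0.859. Of the 6 gates, Rplp0 lay above Control in IR in 5, Rplp1 in 2 and Rplp2 in 0.

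Among large subunit genes, 32 of 47 lay above 1 for IR over Control (median log2 0.06) and 17 of 47 for IR+CBD over IR (median -0.04). Of all genes, 43.3% and 49.1% lay above 1 in these comparisons. Rpl5 and Rpl11, whose proteins form the 5S particle that binds Mdm2 and so stabilizes p53, had 1180, 1200 and 1155 CPM and 3017, 3275 and 3155 CPM. Rpl11 was above Control in IR in each of the 6 gates. Rpl15, a core protein of the subunit, had 633, 699 and 596 CPM, with an IR+CBD over IR ratio of 0.852 (0.845 to 0.859). Rpl3, near the peptidyl transferase centre, had 2459, 2535 and 2423 CPM. Rpl10, which is added last in the cytoplasm, had 2499, 2381 and 2378, and Rpl10a had 1827, 1974 and 1871. None of the 6 genes named in this group reached 1.2-fold in any comparison over all cells, while Rpl15, Rpl10a and Rpl3 did in single gates.

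Rpl38, known for a role in the translation of Hox mRNAs in the embryo, had 2131, 1846 and 2074 CPM. It was 0.867 times the Control level in IR (0.863 to 0.870), the lowest of the members by the upper bound of the interval, and 1.12 times the IR level in IR+CBD. Its IR+CBD over Control ratio was 0.974. Rpl35a and Rpl39, the latter at the exit tunnel, also had their lowest value in IR, with 2460, 2315 and 2433 CPM and 3712, 3462 and 3647 CPM. Rpl23, another member with a link to Mdm2, had 5018, 5232 and 5288 CPM, and Rpl41, the shortest of the proteins, had 4460, 4597 and 4739. The member with the most UMIs, Rpl32, had 5876, 6058 and 6110 CPM. For IR over Control, Rpl23 and Rpl32 lay above 1 in 4 of the 6 gates, but Rpl41 in only 2.

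Among small subunit genes, 21 of 33 lay above 1 for IR over Control (median log2 0.01) and 21 of 33 for IR+CBD over IR (0.02). The shares of all genes above 1 were 43.3% and 49.1%. Rps2, at the mRNA entry, had 4731, 5578 and 5291 CPM, 1.18 times in IR and 0.949 times from IR to IR+CBD. Rps19, the gene most often hit in Diamond-Blackfan anaemia, had 2282, 2645 and 2369 CPM, with ratios of 1.16 and 0.896. Rps7, also a ligand of Mdm2, had 1814, 2067 and 1877 CPM, with ratios of 1.14 and 0.908. IR was highest for these 3, and IR+CBD lay between the others. Rps19 and Rps7 were above Control in IR in each of the 6 gates.

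The opposite order was found in Rps28, Rps29, Rps21 and Rps27, small proteins of which Rps27 and Rps29 bind zinc. Rps28 had 2602, 2265 and 2502 CPM, 0.870 times the Control level in IR (0.867 to 0.874), with a log2 ratio of 0.14 from IR to IR+CBD. Rps29 had 4881, 4332 and 4822 CPM, with ratios of 0.888 (0.885 to 0.890) and 1.11. Rps21 had 3033, 2713 and 2965 CPM and Rps27 had 1891, 1745 and 1868. All 4 were lowest in IR, and their IR+CBD levels were 0.962 to 0.988 times Control. Rps6, the kinase target downstream of mTOR, had 1049, 987 and 932 CPM, and at 0.888 times (0.882 to 0.894) was among the 3 lowest members for IR+CBD over Control.

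Other small subunit genes with known roles were nearly level over all cells. Rps3, also a DNA repair factor, had 3690, 3763 and 3743 CPM. Rps4x had 3872, 3941 and 4001, Rps14, the 5q deletion gene, had 3553, 3526 and 3577, Rps20 had 4686, 4660 and 4738, and Rps26 had 2910, 2978 and 3049. None of these 5 differed by more than 5% between any pair of libraries over all cells. Single gates differed more and in both directions. Across the 6 gates the IR over Control ratio ran from 0.935 to 1.04 for Rps3 and from 0.925 to 1.08 for Rps4x. It ran from 0.920 to 1.03 for Rps14, from 0.901 to 1.02 for Rps20 and from 0.960 to 1.02 for Rps26. The IR+CBD over Control ratio of Rps4x ran from 0.928 to 1.11.

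The direction was often shared by the gates, which are parts of the same libraries. Among the 80 members with at least 200 UMIs in each gate, 13 lay above Control in IR in all 6 gates, and 18 lay below in all 6. These are 16.2% and 22.5% of the 80, against 7.91% and 20.1% of the 4095 genes with at least 200 UMIs in each gate, and the share below is thus near that of all genes. The 13 were Rpl11, Rpl18, Rpl19, Rpl23a, Rpl24, Rpl27, Rpl29, Rpl31, Rps7, Rps10, Rps13, Rps19 and Rps27l. The 18 included Rpl35a, Rpl36, Rpl37, Rpl37a, Rpl38, Rps21, Rps27, Rps28 and Rps29. From IR to IR+CBD, 6 lay above 1 in all 6 gates, among them Rpl37, Rpl38, Rps21, Rps28 and Rps29, and 23 lay below, which is 7.50% and 28.7% of the 80 against 10.5% and 13.1% of the 4095 genes. The ratio of Rpl38 ran from 0.800 to 0.890 over the gates for IR over Control and from 1.01 to 1.16 for IR+CBD over IR. Cells of 2 or more lineage gates were kept in these values and gave 72.8 to 77.5% of the member UMIs of the Retnlg gate. Without them, the member share of that gate was 3.89% in Control and 3.17% in IR. Most of the 13 then lay below Control in IR in that gate, such as Rpl11 with 12.7 and 12.9 of 1000 member UMIs. Rps10, Rpl24 and Rpl27 stayed above.

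The members with the shortest mRNAs shared a direction for IR over Control and the opposite one for IR+CBD over IR. The shortest principal transcript was taken for 80 of 83 members from GENCODE release M21 (GRCm38), with a range of 271 to 3706 bases and a median of 705. The 6 members under 400 bases were Rps21, Rps27, Rps28, Rps29, Rpl36 and Rpl38, a limit chosen after their values were seen. None of the 6 lay above 1 for IR over Control (median log2 -0.17), and 6 of 6 did for IR+CBD over IR (median 0.14). Of the 36 other genes under 400 bases with at least 1000 UMIs, 10 lay above 1 for IR over Control (median -0.11) and 15 for IR+CBD over IR (median -0.03). Of the 18 members of 600 to under 800 bases, 15 lay above 1 for IR over Control and 5 for IR+CBD over IR. Of the 306 other genes of that length these were 199 and 99. In the length bins from 400 bases on, the median log2 ratio of the members ran from 0.02 to 0.07 for IR over Control. What part fragment length or library preparation had in this was not tested, and with 1 library per group it cannot be told apart from the treatment.

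**Figure D3:**
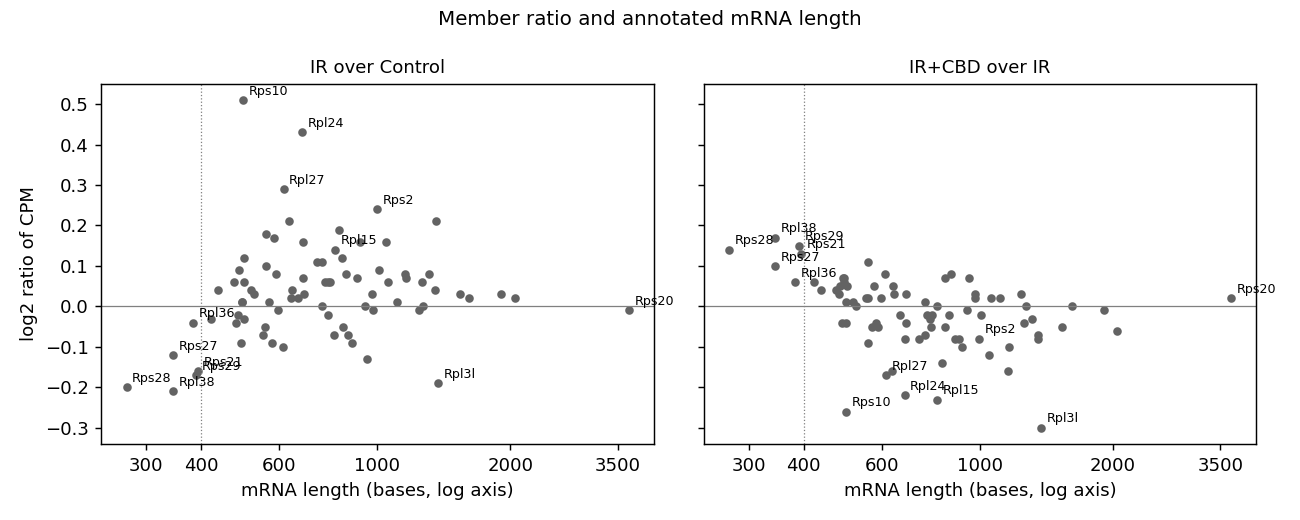
The log2 ratio of CPM of 80 members against mRNA length (bases, log axis) for IR over Control (left) and IR+CBD over IR (right), with 1 point per gene and a dotted line at 400 bases. The 6 members left of that line lie below 0 in the left panel and above 0 in the right panel, which share the IR library.

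The make-up of the ribosomal protein mRNA pool also differed between cell kinds. Each member was taken as UMIs per 1000 ribosomal protein UMIs in each gate and library, which sets aside how many such UMIs a cell had. Over the 82 members with a UMI in every gate and library, the range between gates was 1.19-fold in the median, under 1.2-fold for 41 and over 1.5-fold for 11. The gate with the highest value was the same in all 3 libraries for 54 members and the gate with the lowest for 57. This pattern was seen before the genes were chosen, and is a description. Such counts were not made for other genes, so they do not show a trait particular to the members. Cells that passed 2 or more lineage gates gave much of the member UMIs of some gates, 72.8%, 77.5% and 76.7% in the Retnlg gate and 34.0 to 49.2% in the Siglech gate. Values without them, an alternative chosen after seeing the data, are therefore given beside those of the gates, and with them left out the highest gate was the same in all 3 libraries for 56 of the 82 members and the lowest for 62.

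Rps27, a zinc-binding small subunit protein, had a 1.84-fold range, with 12.6, 13.4 and 13.3 of 1000 in the Siglech gate and 12.1, 11.4 and 12.5 in the Cd79a gate, against 7.33, 6.74 and 7.28 in the Mpo gate. Rps2 went the other way, with 25.8, 29.7 and 28.7 in the Klf1 gate against 16.0, 16.3 and 14.0 in the Siglech gate (1.82-fold). Rpl31, a large subunit protein beside the exit tunnel, had 6.56, 7.11 and 8.48 in the Siglech gate and 3.67, 3.85 and 3.75 in the Cd79a gate (1.95-fold). For each of these genes, the gates named as high and as low did not overlap over the 3 libraries. Without cells of 2 or more lineage gates, Rps27 had 14.5, 16.4 and 15.1 in the Siglech gate and 14.5, 15.7 and 16.1 in the Retnlg gate, and its lowest gate was again Mpo. Rpl31 then had 7.66, 8.89 and 10.5 in the Siglech gate. Rps2 was still highest in the Klf1 gate, but its lowest values, 12.7, 10.7 and 10.5, were then in the Retnlg gate.

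Further members were chosen for mention after their values were seen. Rps9 and Rps27a, the latter made as a fusion with ubiquitin, were highest in the Retnlg gate, with 24.9, 24.6 and 25.2 and with 29.2, 28.3 and 29.3 of 1000. Rps9 had 16.0, 16.2 and 16.3 in the Klf1 gate. Without the cells of 2 or more lineage gates Rps9 in the Retnlg gate stood at 43.2 in Control and 48.0 in IR, with IR+CBD above both, and Rps27a at 40.4, 41.7 and 41.8, further from the other gates. Rpl10 had 16.0, 15.5 and 17.5 in the Siglech gate and 10.6, 10.6 and 10.4 in the Klf1 gate. Rpl13a, part of the translational silencing complex named GAIT, had 1.88, 2.03 and 1.92 in the Klf1 gate and 1.29, 1.17 and 1.07 in the Mpo gate, and without those cells was lowest in the Retnlg gate at 1.14, 0.970 and 0.975. The largest range by rule belonged to Rps4l, a copy of Rps4x by symbol, at 3.15-fold, but it rests on as few as 19 UMIs in 1 gate and library. Rps3a3, at 1.72-fold, rests on as few as 2.

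**Figure D4:**
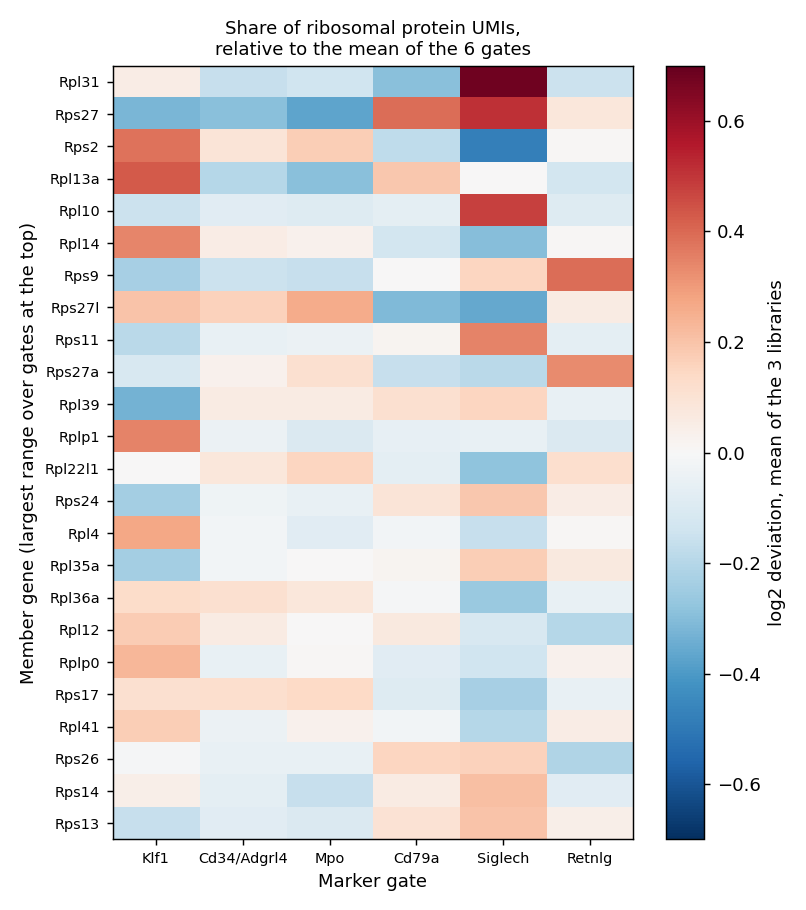
Members with the largest range between gates among those with at least 100 UMIs in every gate and library, 24 genes, with colour for the log2 share of ribosomal protein UMIs relative to the mean of the 6 gates, averaged over the 3 libraries. Rps27 is high (red) in the Siglech and Cd79a gates, Rps2 in the Klf1 gate and Rps9 in the Retnlg gate.

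Paralog pairs gave ratios of UMIs within 1 cell kind, read across libraries and gates only, since UMIs of different genes are caught with different efficiency. Per 100 UMIs of Rpl22, a large subunit gene that T cell development needs, its paralog Rpl22l1 had 41.2 in Control (41.0 to 41.5), 37.7 in IR (37.5 to 37.9) and 37.3 with IR+CBD (37.0 to 37.5). The Rpl22l1 ratio was highest in Control in all 6 gates, from 43.4, 39.4 and 38.3 in the Mpo gate and 48.5, 40.9 and 41.9 in the Retnlg gate to 38.3, 38.1 and 37.9 in the Klf1 gate. The intervals of Control and IR overlapped in the Klf1 and Siglech gates. Values of the Retnlg and Siglech gates include the cells of 2 or more lineage gates. Rpl22 itself had 2290, 2392 and 2452 CPM and Rpl22l1 had 945, 902 and 913, so the numerator and the denominator lay on opposite sides of Control.

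Rps27l, a p53 target and paralog of Rps27, had 655, 710 and 689.9 CPM. Cdkn1a, also a p53 target, went the other way, with 75.7, 36.6 and 38.6 CPM in Control, IR and IR+CBD. Mdm2 was at 0.929 times the Control level in IR. The part of p53 in these values was not tested. Per 100 UMIs of Rps27, Rps27l had 34.7, 40.7 and 36.9. With cells of 2 or more lineage gates kept, IR was highest in each of the 6 gates, with overlapping intervals in the Siglech gate. Without those cells the ratio in the Retnlg gate was highest in Control. There Rps27l had 2.20, 2.18 and 2.01 of 1000 member UMIs, and Rps27 had 14.5, 15.7 and 16.1. The ratio differed more between cell kinds than between libraries, with 47.7, 51.7 and 45.6 in the Mpo gate against 18.8, 21.0 and 17.9 in the Cd79a gate. Rps27 is among the 6 short mRNAs that were lower in IR, and both genes entered this ratio. Rpl7l1 per 100 of Rpl7 was 9.03, 9.09 and 9.54.

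**Figure D5:**
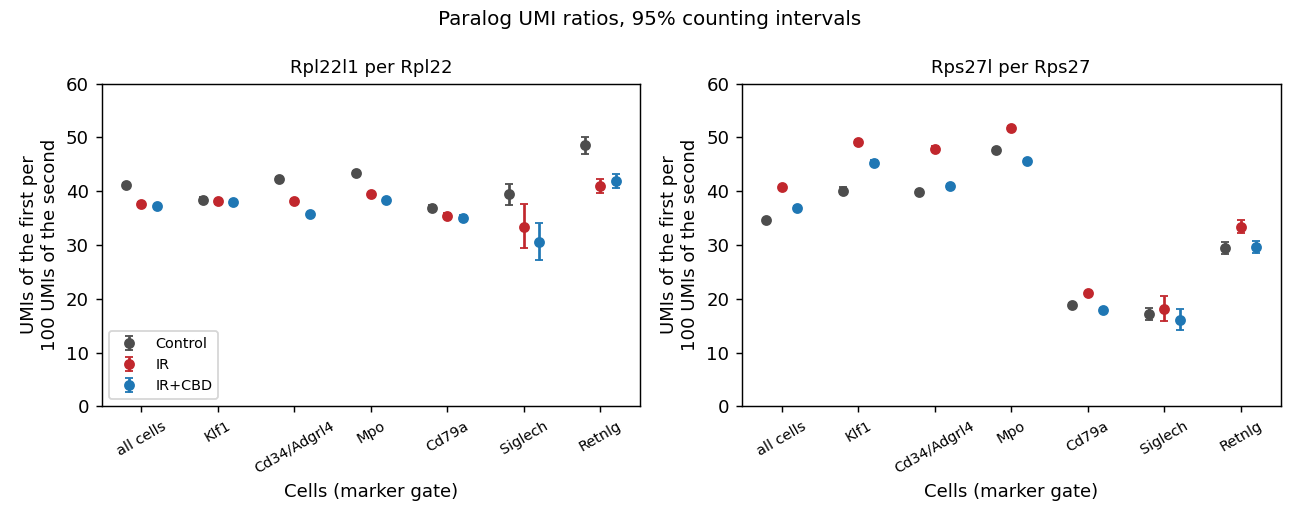
UMIs of a paralog per 100 UMIs of its partner in all cells and 6 gates, for Rpl22l1 per Rpl22 (left) and Rps27l per Rps27 (right), with 1 point per library and bars for 95% counting intervals. Rpl22l1 per Rpl22 is highest in Control and Rps27l per Rps27 is highest in IR in every gate. Intervals of Control and IR overlap in the Klf1 and Siglech gates on the left and in the Siglech gate on the right.

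Near the UMI minimum, the members just inside were Rpl3l with 1013 UMIs (398, 363 and 252 in the order of the libraries), Rps3a3 with 1126 (354, 392 and 380) and Rpl6l with 6427. Just outside were Rps3a2 with 892 (314, 315 and 263), Rpl39l with 868 (113, 183 and 572) and Rpl32l with 783 (312, 227 and 244). Rpl3l, the striated muscle paralog of Rpl3, had 2.04, 1.79 and 1.45 CPM, 0.711 times (0.605 to 0.835) for IR+CBD over Control. Per 100 UMIs of Rpl3 it stood at 0.776, 0.605 and 0.601 in the Retnlg gate and 0.290, 0.272 and 0.223 in the Cd79a gate, but at 0.00555, 0.00577 and 0.00850 in the Klf1 gate. Rps3a3, which overlaps Pde4d on its strand, had 1.82, 1.94 and 2.19 CPM, 1.21 times for IR+CBD over Control. That ratio rests on 354 and 380 UMIs, and the part of Pde4d reads in it was not tested. The values of such copies are uncertain, since counting can assign reads of the parent gene to them or the reverse.

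Lists of genes with related functions were read beside the members. Of 24 translation factors and other TOP mRNAs, 20 lay above 1 for IR over Control (median log2 0.04) and 5 for IR+CBD over IR (median -0.04), with 0 past 1.2-fold in either direction or comparison. Eef1d, an elongation factor subunit, had 524, 589 and 560.3 CPM, and Rpsa, the laminin receptor and small subunit protein, had 4113, 4498 and 4335. Counts past 1.2-fold in the lists below stand beside 9.30% higher and 17.7% lower among all genes for IR over Control, and 3.99% and 3.79% for IR+CBD over IR. Of all genes, 43.3% lay above 1 for IR over Control and 49.1% for IR+CBD over IR. Of 48 ribosome biogenesis genes, 46 lay above 1 for IR over Control (median 0.12, 2 past 1.2-fold higher and 0 lower) and 3 for IR+CBD over IR (median -0.08, 0 past 1.2-fold). Rrp9, a protein of the U3 particle, had 32.7, 40.2 and 35.6 CPM.

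Of 77 mitochondrial ribosomal protein genes, 73 lay above 1 for IR over Control (median 0.11, 6 past 1.2-fold higher and 0 lower) and 6 for IR+CBD over IR (median -0.06, 0 past 1.2-fold). Of 76 nuclear genes of the respiratory chain, 66 lay above 1 for IR over Control (median 0.08, 3 past 1.2-fold higher and 3 lower) and 34 for IR+CBD over IR. The median of the cytosolic members for IR over Control, 0.03, was below that of these 4 lists, and their quartiles of -0.03 and 0.08 lay inside those of all genes, -0.19 and 0.10. Of 15 genes of translational control, 8 lay above 1 for IR over Control (2 past 1.2-fold higher) and 6 for IR+CBD over IR (1 lower). Eif2ak2, the interferon-induced kinase PKR, had 31.2, 50.1 and 33.2 CPM, and Eif4ebp1, the mTOR target that restrains cap binding, had 112, 139 and 132. Larp1, which binds TOP mRNAs, had 170.4, 179.8 and 174.0 CPM.

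The mix of cells moved with all values over all cells. To count each cell once, a cell of several gates was put in the first it passed, in the order Mpo, Klf1, Cd79a, Retnlg, Siglech and Cd34/Adgrl4. So counted, the Mpo gate held 57.0%, 46.6% and 48.9% of UMIs in Control, IR and IR+CBD, and cells of the Klf1 gate outside the Mpo gate, whose gate had the highest member share, held 10.4%, 27.5% and 24.3%. With the cell kinds of every library weighted as in Control, the member share was 1.001 times for IR over Control and 1.013 times for IR+CBD over IR. Fewer cells of a kind in the remixed marrow and fewer UMIs per cell cannot be told apart in a sum over all cells.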

How the data were processed

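BMNCs of 3 groups were measured by 10x Genomics 3′ single-cell RNA sequencing, with 1 library per group. The authors deposited filtered matrices of UMI counts per gene and barcode, with 12200, 11951 and 11884 barcodes for Control, IR and IR+CBD and no cell annotation. The processing notes name Cell Ranger 4.0 and GRCm39, while the matrix header names 7.0.1. Whether intronic reads were counted is not given in the sources used here.

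Groups came from the labels. Cells with at least 200 genes and at most 5% mitochondrial UMIs were kept (10674, 10345 and 10273 cells with 194839224, 202361682 and 173466089 UMIs). No doublet caller was run and doublets were kept. Cells that passed 2 or more lineage gates, and the top 8% by UMIs, were left out as alternatives. UMIs were summed per library and gate. Intervals are at 95% and exact: Clopper-Pearson for a share, Poisson for a CPM value and conditional binomial for a ratio of libraries. No test between groups was made, since each group is 1 library. Genes named in the text were members with a known role of their own, the 3 highest and 3 lowest by interval in each comparison, the 5 with the largest range between gates, those next to the UMI minimum, and others said to be chosen later. Members and lists were chosen with earlier results of these data known. Interval and fold calls were tested on simulated data.

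Start sites came from a RefSeq table of GRCm38.p6, and mRNA lengths and shared 50-base stretches from GENCODE M21, matched by symbol or gene ID. Other filters, gates, scalings, weightings and folds were tried as alternatives. The values of 1 member and the share with further genes added to the members are not reported here. Python 3.11.15 with numpy 2.4.6, scipy 1.17.1, pandas 2.3.3 and matplotlib 3.10.9 was used.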

Additional observations from a re-analysis of the deposited data

Results flagged for a closer look

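The ratio of the ribosomal protein share between libraries lay on opposite sides of 1 in different gates, and did so for the gates below with doubled thresholds, without cells of 2 or more lineage gates, with other filters on genes and mitochondrial UMIs, and as a mean over cells. It did not hold in all subsets of cells. In the Mpo gate, IR lay below Control at 10000 to 20000 UMIs (22.1% against 25.0%), and among cells with no UMI of Mki67 or Top2a IR lay below Control in the Mpo gate (25.1% against 26.0%) and above it in the Klf1 gate (33.0% against 32.7%, from 32 and 22 cells). IR over Control, it was 1.02 in the Mpo gate against 0.963 in the Klf1 gate and 0.929 in the Siglech gate. IR+CBD over IR, it was 1.03 in the Mpo gate, 1.02 in the Klf1 gate and 1.03 in the Cd34/Adgrl4 gate against 0.953 in the Cd79a gate. IR+CBD over Control, it was 1.05 in the Mpo gate and 1.04 in the Cd34/Adgrl4 gate against 0.979 in the Klf1 gate, 0.973 in the Cd79a gate and 0.894 in the Siglech gate. These differences between gates were not tested, because each gate has 1 value per group, and the Siglech gate held 46 cells in IR.

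Rpl39l, a paralog of Rpl39 known from the testis, lay under the UMI minimum and so outside the 83 genes, yet differed more between libraries than any of them. It had 0.580, 0.904 and 3.30 CPM in Control, IR and IR+CBD, which is 1.56 times for IR over Control and 5.69 times for IR+CBD over Control. Of its UMIs, 7, 108 and 256 were in the Klf1 gate and 75, 83 and 206 in the Mpo gate, and it was highest in IR+CBD in both.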

How the results depend on the processing

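All values rest on 1 library per group, so the spread between mice is unknown and only counting error is covered. No paired analysis was possible because each group is 1 library and the labels give no replicate numbers.

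The ratio of the share over all cells was, for IR over Control, 1.021 with a mitochondrial limit of 10% or with all deposited barcodes, 1.018 without cells of 2 or more lineage gates, 1.012 without the top 8% of cells, 1.022 without mitochondrial and hemoglobin UMIs, 1.001 with cell kinds weighted as in Control and 0.9842, below 1, as a mean over cells. For IR+CBD over IR these were 1.001, 1.000, 1.004, 0.9965 (below 1), 1.004 with at least 1000 genes per cell, 1.013 weighted and 0.9892 as a mean over cells. For IR+CBD over Control they were 1.022 for the limit of 10%, for all barcodes and without cells of 2 or more gates, 1.008 without the top 8%, 1.025, 1.014 weighted and 0.9735 as a mean over cells. The cause of the changes of direction was not tested.

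Members past the fold, higher and lower, were 13 and 6, 4 and 8, and 4 and 3 for the 3 comparisons at a fold of 1.1, and 0 throughout at a fold of 1.5. The share of all genes was not computed for these alternatives. The counts in this paragraph thus do not tell whether members differed from genes in general. With symbols of at least 100 UMIs included, IR over Control had 1 lower, and IR+CBD had 2 higher over IR and 2 higher over Control. Lower members for IR+CBD over IR were 2 with all barcodes or without the top 8%. Higher members for IR+CBD over Control were 2 when scaled by the median of other genes and 0 when scaled by ribosomal protein UMIs (then 2 lower), with all barcodes, at least 1000 genes, the limit of 10% or without the top 8%.

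Gates above 1 for IR over Control were 1 of 6 as a mean over cells, against 3. Single gates changed side as follows. The Cd79a gate for IR over Control was at 0.993 without cells of 2 or more lineage gates and 0.997 as a mean over cells, the Retnlg gate at 1.01 with doubled thresholds, and the Cd34/Adgrl4 gate at 0.987 as a mean over cells. The Siglech gate for IR+CBD over IR was at 1.02 and 1.05 by the former pair of settings. The Retnlg gate for IR+CBD over Control was at 1.01 with doubled thresholds and as a mean over cells. Of 126 ratios of named members under the alternatives, 2 changed side of 1, both of Rps29 for IR+CBD over Control, at 1.01 scaled by the median of other genes and 1.00 weighted by cell kinds.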
